A study of Mus musculus with 16 samples.

Results

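The cytosolic ribosomal protein genes are the genes for the protein part of the ribosomes that translate nuclear mRNA. Their members were taken by symbol from the protein-coding genes of GENCODE M39, as every symbol of Rpl or Rps followed by a digit, with Rplp0, Rplp1, Rplp2 and Rpsa. Kinases and other genes that only share the prefix were dropped, which removed 12 symbols. This gave 91 members of the 51912 genes in the count table. Of these, 31 are canonical small subunit genes, 43 are canonical large subunit genes, 3 are the P stalk genes, and 14 are paralogs or retrocopies that GENCODE annotates as protein-coding. All 77 canonical members and 11 of the 14 paralogs reached 10 counts, summed over the libraries, in every group, so 88 members were tested.

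The study asked how the heart of neonatal mice without Lrrc10, a gene of cardiomyocytes, responds to myocardial infarction (MI), and sequenced ventricular RNA of 16 mice. Surgery took place on postnatal day 1 and the tissue was collected 7 days later. Each of 4 groups had 4 libraries. WT SH were wild-type C57BL/6 J mice after sham surgery, and WT MI were such mice post-MI. KO SH and KO MI were whole-body Lrrc10-/- mice after sham surgery and post-MI, with libraries of KO MI numbered 1, 2, 3 and 7. The WT mice came from a commercial supplier and the Lrrc10-/- mice were made in a C57BL/6 background, so genotype and breeding stock cannot be told apart. The tissue was bulk ventricle, in which fewer cells of a type and less RNA per cell cannot be told apart.

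Ribosomal proteins coat and fold the ribosomal RNA. The small subunit decodes the mRNA, the large subunit joins the amino acids, and the P stalk of Rplp0, Rplp1 and Rplp2 recruits the translation factors that drive each step. Their mRNAs belong to the terminal oligopyrimidine class, which begins with a run of pyrimidines (C or T in the DNA) and whose translation is controlled by mTOR and Larp1. In the heart, ribosome number is known to rise with growth of the muscle. Several subunits have a paralog with a restricted pattern, of which Rpl3l replaces Rpl3 in mature striated muscle.

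The sequence around the annotated start is shown for 5 members because it is the feature by which the class is known. Rpl29, Rpsa and Rpl36 are canonical genes and Rpl3l and Rps27l paralogs, all chosen after their values were seen. Each line gives 15 bases before and 15 bases from the start of the GENCODE canonical transcript, read from GRCm39 on the strand of the gene and written 5′ to 3′, with the longest pyrimidine run in capitals.
Rpl29 (chr9:106306571-106306600, plus strand): gacgctaagagggcgtggccaggCTCTaac
Rpsa (chr9:119956740-119956769, plus strand): tctgcgcgtgcgccagaggCTTTTTCCgga
Rpl36 (chr17:56920340-56920369, plus strand): gcccgcagcgcgcctgTCTCTCTagccgga
Rpl3l (chr17:24946736-24946765, plus strand): ggagctggccaaggagCCTgccaggtgcta
Rps27l (chr9:66853325-66853354, plus strand): gagcggtcgcccccgcctccaCTCCTCTCC
The longest run is 8 in Rpsa, 7 in Rpl36 and 4 in Rpl29, and 9 in Rps27l and 3 in Rpl3l, so these windows do not divide canonical genes from paralogs. A run of at least 7 was in 19 of 75 canonical windows read and in 5 of 13 paralog windows.

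A run of at least 8 pyrimidines that begins with C lay up to 50 bases from the annotated start, on the strand of the gene, in 41 of the 77 canonical members (53.2%). The run was there in 7 of the 14 paralogs and in 29.4% of all 21770 protein-coding genes. The annotated start base itself was a C followed by at least 4 pyrimidines in only 6 of the 77 (7.79%), against 3.62% of all protein-coding genes. In RefSeq's promoter table for GRCm38.p6, 67 canonical members had an entry and 13 of them (19.4%) had such a start, against 2.51% of all 32851 promoters. The share depended on the annotation used, and a match describes letters only. The canonical members lie on 19 chromosomes, with 14 of them on chromosome 7.

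Levels are given as CPM, counts scaled to library size with TMM factors, as mean ± SD over the 4 libraries of a group. Over the 16 libraries, canonical members had between 3.80 CPM (Rps28) and 414 CPM (Rpl13a), with a median of 46.4 CPM. Per kilobase of coding sequence, the lowest was Rpl24 at 14.8 CPM and the highest was Rpl26 at 707 CPM, with a median of 91.4 CPM per kilobase. Rpl13a followed at 676, then the stalk gene Rplp1 at 412 CPM per kilobase. Genes for proteins of a single particle thus differed widely in RNA level as counted in these total-RNA libraries. Rpl24 is overlapped on the same strand by Gm28037, a long noncoding RNA gene with 8.035 CPM on average. Whether reads of Rpl24 were counted for Gm28037 was not tested. The paralogs were far lower, from 0 counts in every library for Rpl10l to 8.94 CPM for Rpl36al.

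The libraries held between 33783874 and 57470159 counts, so that 3 counts, the limit that a count of 0 allows, corresponded to 0.0577 to 0.0858 CPM. Lrrc10 had 0 counts in all 8 KO libraries and 1075 to 1850 counts in the WT libraries. All 10 ventricular cardiomyocyte markers stood at 1 CPM or more in every library, while 9 of the 10 thymocyte markers stayed under 1 CPM in every library. The mitochondrial rRNA mt-Rnr2 took 37.1% to 37.6% of the counts in KO SH, 35.7% to 36.3% in WT SH, 34.05% to 34.8% in WT MI and 29.8% to 35.04% in KO MI. Xist was above 900 CPM in KO SH 1 and 2, WT MI 2 and 4 and KO MI 1 and 2, and at 23.4 CPM or lower in the others. Xist marks female cells, so 2 of 4 libraries of KO SH, WT MI and KO MI and 0 of 4 of WT SH carried the female mark, which differs from the equal sex ratio the study describes and makes sex differ between WT SH and the other groups. Skeletal muscle markers other than Ckm summed to 89.7 CPM in KO MI 2 and 118 CPM in KO MI 7, against 6.18 to 21.4 CPM in the other 14 libraries.

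The KO SH hearts had the lowest ribosomal protein RNA of the 4 groups. The mean of KO SH was the lowest of the 4 group means for 75 of the 77 canonical members, and the highest for 0 of them. Summed over the canonical members, the level was 6541, 5980, 5622 and 5348 CPM in WT SH 1 to 4, and 4938, 5101, 5032 and 4904 CPM in KO SH 1 to 4. Every KO SH library lay below every WT SH library, and the KO SH libraries lay within a narrow range. WT SH averaged 5873 ± 515 CPM (SD, n = 4). KO SH averaged 4994 ± 89.7 CPM (SD, n = 4), a ratio of 0.850. The small subunit (ratio 0.842), the large subunit (0.854) and the P stalk (0.864) were lower by similar amounts. As a share of all counts, members took 0.476% to 0.501% in KO SH and 0.524% to 0.596% in WT SH, again without overlap. Of the counts outside the mitochondrial chromosome they took 0.911% to 0.943% and 0.969% to 1.09%, a log2 difference of −0.15 where the TMM-scaled sum gave −0.23.

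**Figure D1:**
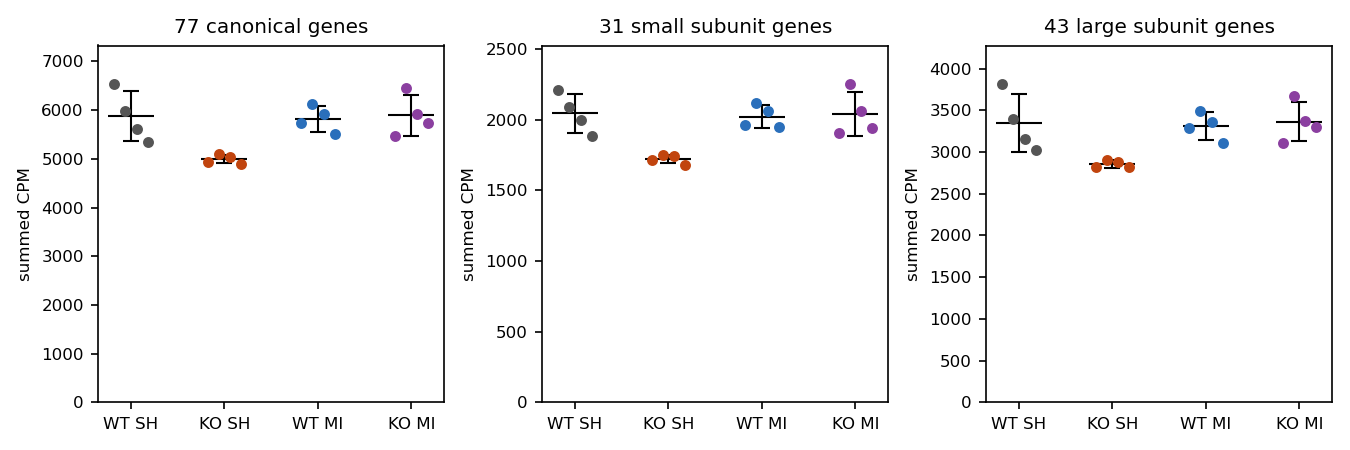
Summed CPM per library of the 77 canonical genes and of the small and large subunit genes, as points by group, with the group mean and SD (n = 4) in black. The 4 KO SH libraries sit between 4904 and 5101 CPM for the canonical sum, below the lowest library of each other group, which is 5348 CPM in WT SH, 5501 CPM in WT MI and 5459 CPM in KO MI.

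In the comparison of KO SH with WT SH, 43 of the 88 tested members were called lower and 0 were called higher (edgeR's quasi-likelihood test, Benjamini-Hochberg adjusted p under 0.1). Of all 20159 genes tested, 7.22% were called lower and 5.11% were called higher. All 77 canonical members had a negative log2 fold change, and 42 of them were called lower, 25 of 43 in the large subunit, 15 of 31 in the small subunit and 2 of 3 in the P stalk. The median log2 fold change was −0.24 over the canonical members and 0.01 over all genes. In 33 members all KO SH libraries lay below all WT SH libraries, as in 10.2% of all genes. Among the members called lower, 3 also had a log2 fold change of 0.5 or more in size, the study's minimum, as 5.01% of all genes did in either direction. These were Rpl29, Rpl3l and Rpl36.

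Rpl36, a large subunit gene, had 28.7, 19.2, 19.8 and 14.99 CPM in WT SH 1 to 4 and 13.3, 12.3, 15.96 and 14.6 CPM in KO SH 1 to 4. The groups overlapped, with WT SH 4 below KO SH 3. On the log2 scale it differed by −0.56 (standard error 0.17, adjusted p = 0.0513 from edgeR). The call of Rpl36 was lost without WT SH 1 (log2 fold change −0.35, adjusted p = 0.218 from edgeR) and without KO SH 1, 2 or 4 (adjusted p of 0.125, 0.135 and 0.101 from edgeR). Rpl10 and Rpl22, the latter a parent of a paralog and the former picked for its small value, differed least, with log2 fold changes of −0.01 (standard error 0.06) and −0.03 (standard error 0.04).

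The number called lower depended on single libraries. It was 17 without WT SH 1, the library with the highest sum, where 4.22% of all genes were called lower. It was 23 without KO SH 4 (4.52% of all genes), 25 without WT SH 2 (5.09%) and 28 without KO SH 2 (5.08%), and in each of these fits all of the called members were lower. With Xist as a covariate, 37 were called lower, against 7.24% of all genes. Among the libraries with low Xist, KO SH 3 and 4 at 5032 and 4904 CPM also lay below all WT SH libraries. Other RNA also differed between KO SH and WT SH in the main fit, where 7.22% of all genes were called lower and 5.11% higher. The summed G2M markers were at 454 to 517 CPM in KO SH and 544 to 679 CPM in WT SH, with 3 of 10 called lower. Macrophage markers summed to 50.1 to 58.3 CPM against 58.5 to 68.4 CPM, with 3 of 10 called lower. Of the cardiomyocyte markers 4 of 10 were called lower (30810 to 31645 CPM summed in KO SH against 30997 to 42436 CPM in WT SH), of the fibroblast markers 2 of 10 (2506 to 2735 CPM against 2732 to 3160 CPM) and of the erythroid markers 1 of 9 (454 to 542 CPM against 560 to 773 CPM). By edgeR, 0 of the tested skeletal muscle, thymocyte, endothelial and adipocyte markers were called. Their part in the ribosomal protein result was not tested.

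**Figure D2:**
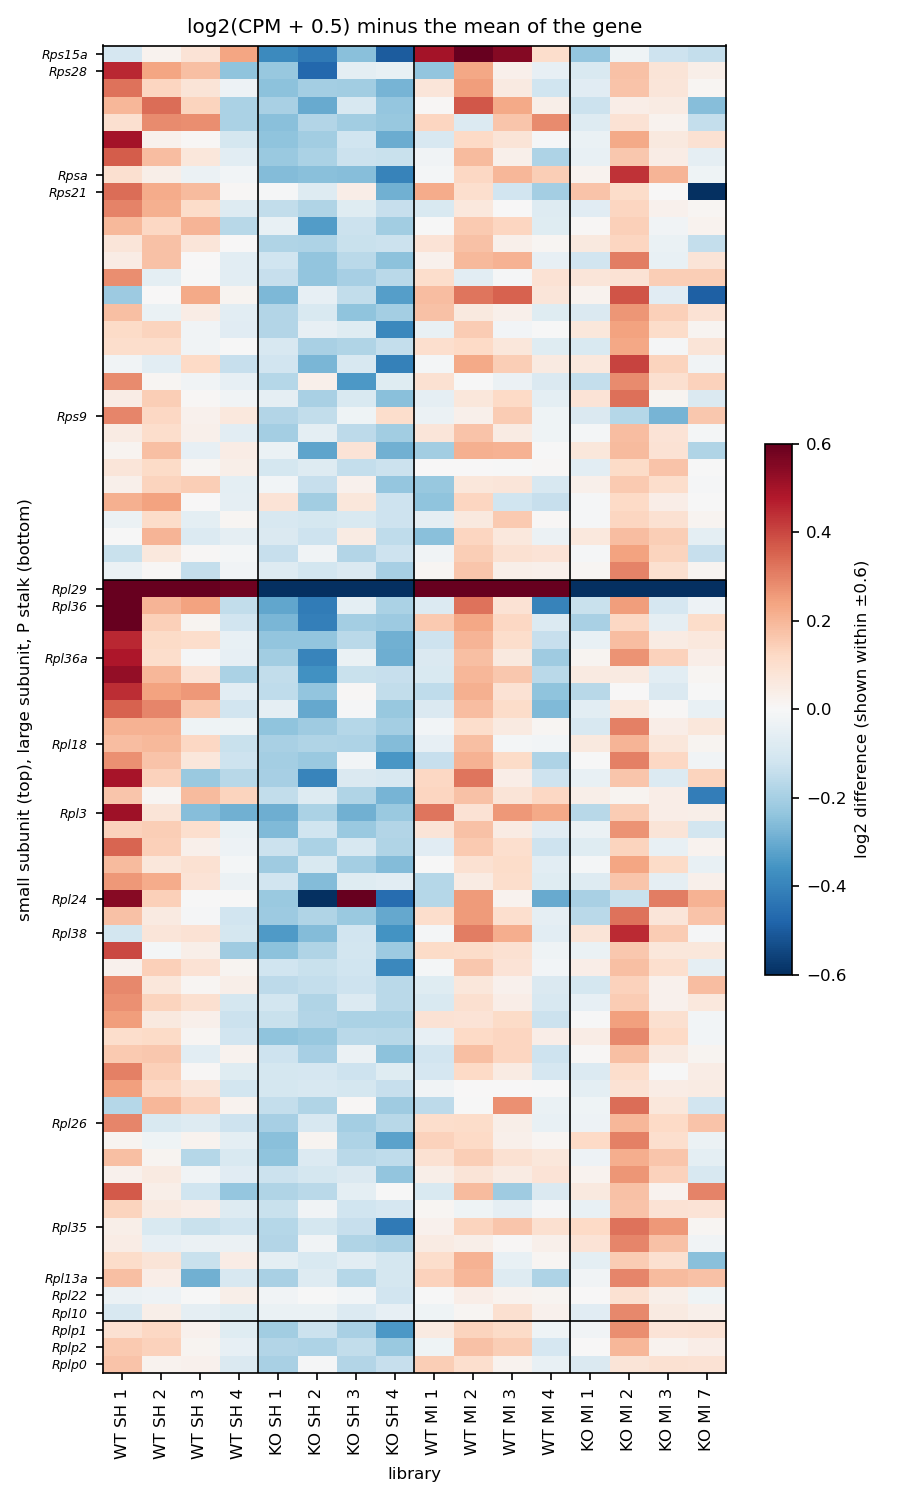
Level of each of the 77 canonical members (rows, grouped by subunit and ordered by log2 fold change of KO SH against WT SH) in each of the 16 libraries (columns), as log2(CPM + 0.5) minus the mean of the gene, red for higher and blue for lower, with names for the members described in the text. The KO SH columns are blue for nearly all rows, WT SH 1 and KO MI 2 are the reddest columns, and Rpl29 is blue in all 8 KO libraries.

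After MI the KO hearts had more ribosomal protein RNA than KO hearts after sham surgery. The canonical sum was 5459, 6445, 5926 and 5736 CPM in KO MI 1, 2, 3 and 7, all above the KO SH libraries. The mean was 5892 ± 416 CPM (SD, n = 4), a ratio of 1.18 to KO SH. As a share of all counts, without the TMM factors, the log2 ratio was 0.39 in place of 0.24, a ratio of 1.31. As a share of counts outside the mitochondrial chromosome, also without TMM factors, the ratio was 1.18. The comparisons of KO SH with WT SH and of KO MI with KO SH use the same KO SH libraries, so they are not independent. Of the 88 members, 42 were called higher, all of them canonical, and 1, Rpl3l, was called lower (edgeR, adjusted p under 0.1), against 10.2% of all genes called higher and 7.32% called lower. The called genes were 24 of 43 in the large subunit, 15 of 31 in the small subunit and 3 of 3 in the P stalk. The median log2 fold change was 0.23 over the canonical members and −0.01 over all genes. In 47 members every KO MI library was above every KO SH library, as in 7.67% of all genes. Only Rpl3l also passed the minimum of 0.5, which 7.42% of all genes did with either sign.

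The 3 largest rises were in Rpsa, Rpl38 and Rpl35. Rpsa, a small subunit protein also known as the laminin receptor, had 179, 181, 180 and 163 CPM in KO SH 1 to 4 and 219, 291, 248 and 211 CPM in KO MI 1, 2, 3 and 7. The groups did not overlap and KO MI 2 was highest. On the log2 scale it differed by 0.46 (standard error 0.08, adjusted p = 0.00243 from edgeR). Rpl38, a large subunit protein known for its role in the translation of homeobox mRNAs, rose from 10.5 to 12.5 CPM in KO SH to 13.5 to 18.7 CPM in KO MI (log2 fold change 0.46, standard error 0.11, adjusted p = 0.0105 from edgeR). Rpl35, which lies at the exit of the peptide tunnel, rose from 59.6 to 74.5 CPM to 81.0 to 101 CPM (log2 fold change 0.39, standard error 0.07, adjusted p = 0.00361 from edgeR).

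The P stalk genes were called in both comparisons with KO SH except for Rplp0 against WT SH. Rplp1 had 151, 154, 144 and 135 CPM in WT SH 1 to 4, 122, 129.5, 123.4 and 111.5 CPM in KO SH 1 to 4, and 139, 172, 150 and 150.5 CPM in KO MI 1, 2, 3 and 7. KO SH lay below both other groups without overlap. The log2 fold changes of Rplp1 were −0.26 in KO SH over WT SH and 0.33 in KO MI over KO SH (standard error 0.07 each, adjusted p of 0.0235 and 0.00536 from edgeR). Rplp2 had log2 fold changes of −0.25 and 0.25 (standard error 0.07 each, adjusted p of 0.0287 and 0.0217 from edgeR). Rplp0, the base of the stalk, had −0.16 (adjusted p = 0.137 from edgeR) and 0.17 (adjusted p = 0.0956 from edgeR). The second call of Rplp0 was lost in 6 of the 8 fits without 1 library, namely without KO SH 1, 3 or 4 or KO MI 2, 3 or 7, with an adjusted p of up to 0.219 (edgeR). It was also lost in 7 of 16 other alternatives, stricter thresholds among them. The call of Rplp2 in KO MI against KO SH was lost in 2 of 16 such alternatives.

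KO MI 2 carried the highest level of 34 of the 77 canonical members, and WT SH 1 carried the highest of 29. Without KO MI 2, 20 members were called higher in KO MI than in KO SH and 0 lower, against 6.09% of all genes called higher. Without KO SH 4, 27 were called higher and 1 lower, against 7.43% of all genes called higher. With both KO MI 2 and KO MI 7 left out, the libraries with high skeletal muscle markers, 22 were called higher and 0 lower, against 9.49% of all genes called higher. KO MI 2 also had the lowest share of mt-Rnr2, at 29.8%. In KO MI against KO SH, with all libraries, 10.2% of all genes were called higher and 7.32% lower. All 10 G2M markers were called higher (679 to 908 CPM summed in KO MI against 454 to 517 CPM in KO SH). Of the macrophage markers 9 of 10 were called higher (64.0 to 138 CPM against 50.1 to 58.3 CPM), of the fibroblast markers 5 of 10 (3481 to 4336 CPM against 2506 to 2735 CPM), of the erythroid markers 7 of 9 (379 to 1173 CPM against 454 to 542 CPM), of the skeletal muscle markers 5 of 6 tested, and of the cardiomyocyte markers 3 of 10 (29854 to 31207 CPM against 30810 to 31645 CPM). Lower were 2 of 10 cardiomyocyte markers, 5 of 10 endothelial markers, 1 of 9 erythroid markers and 1 of 2 tested adipocyte markers, and 0 of the 6 tested thymocyte markers were called. Their part in the rise of the ribosomal protein genes was not tested.

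**Figure D3:**
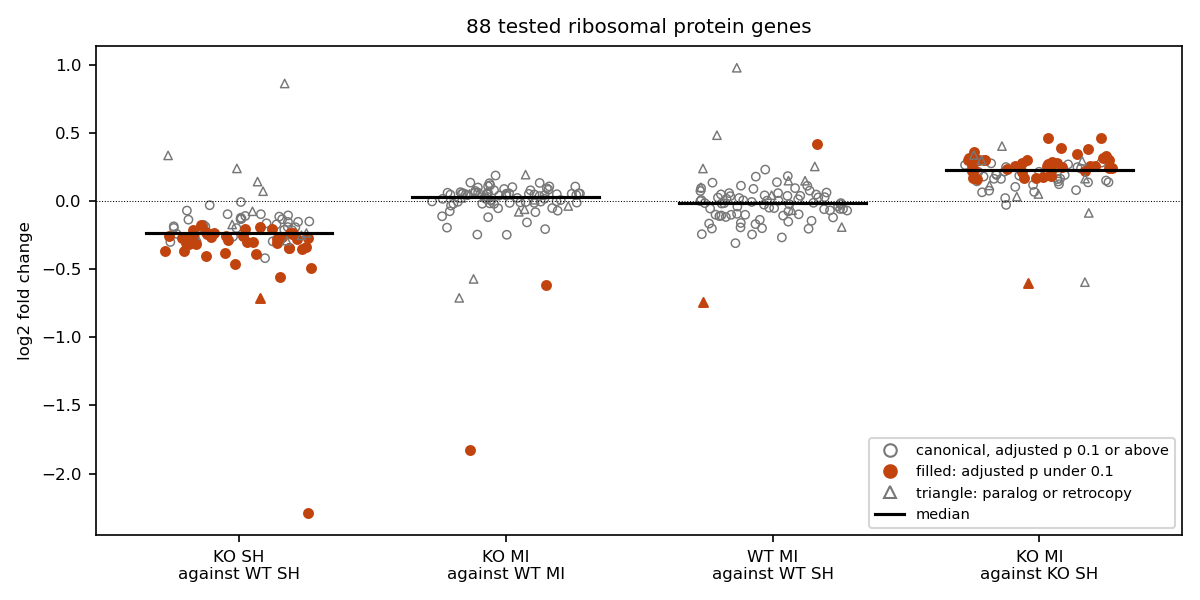
Log2 fold changes of the 88 tested members in the 4 comparisons, 1 point per gene, filled where the adjusted p is under 0.1 and triangular for paralogs and retrocopies, with the median as a line. The points lie mostly below 0 in KO SH against WT SH (median −0.23) and above 0 in KO MI against KO SH (median 0.22), and spread around 0 in the other comparisons, where Rpl29, Rps15a and Rpl3l are the called genes.

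Post-MI, the KO and WT hearts overlapped in most members. The canonical sum was 5743, 6116, 5914 and 5501 CPM in WT MI 1 to 4, with a mean of 5819 ± 261 CPM (SD, n = 4). The ratio of the KO MI mean to the WT MI mean was 1.01, a difference smaller than the spread between libraries. Of the 88 members, 2 were called with lower levels in KO MI and 0 with higher levels, against 2.04% and 1.03% of all genes. These were Rpl29 and Rps15a, and both passed the minimum of 0.5, as 1.73% of all genes did. The median log2 fold change over the canonical members was 0.04. At an unadjusted p under 0.05 there were 5 members, below the share of all genes, 12.4%. With copies added to the parents, as described for Rpl3, 1 member was called higher.

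WT hearts differed little between MI and sham surgery. Rps15a was called higher and Rpl3l lower in WT MI than in WT SH, which is 1 of 88 members in each direction, against 3.11% of all genes called higher and 2.21% called lower. Rpl3l passed the minimum of 0.5, as did 2.78% of all genes. The canonical sum of WT MI was 0.991 of that of WT SH, less than the spread between libraries. The median log2 fold change over the canonical members was −0.02. As a share of all counts, which uses no TMM factor, the level was higher in WT MI, by 0.12 on the log2 scale (ratio 1.086). It was 0.561% to 0.640% in WT MI against 0.524% to 0.596% in WT SH, and the groups overlapped. As a share of counts outside the mitochondrial chromosome the ratio was 1.047.

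The KO effect was compared between the 2 surgeries by an interaction term, the log2 fold change of KO against WT post-MI minus that post-sham. The median interaction was 0.27 over the canonical members, with 75 of 77 above 0, and 0.00 over all genes. By edgeR with an adjusted p under 0.1, 0 of the 88 members were called (0.0198% of all genes were called with a positive and 0.00496% with a negative interaction), while 45 had an unadjusted p under 0.05, as had 13.6% of all genes. The smallest adjusted p was that of Rpl18, a large subunit gene (interaction 0.37, standard error 0.10, adjusted p = 0.188 from edgeR). DESeq2 called 14 members, all with a positive interaction, as it did 2.68% of the genes it tested. Leaving out KO MI 7 gave 21 members with a positive interaction, against 5.36% of all genes, and 1 with a negative one, against 3.72%. Without WT SH 4, 5 members had a positive interaction, against 0.515% of all genes. Without both KO MI 2 and KO MI 7, 2 had a positive and 1 a negative interaction, near the 2.2% and 1.92% of all genes.

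Rpl29 had the largest absolute log2 fold change of the members in both comparisons of KO with WT. Its protein sits in the large subunit and is also known as a heparin-binding protein. The gene (ENSMUSG00000048758) spans 106306586 to 106311297 of chromosome 9 (GRCm39, plus strand). Its levels were 108.5, 103, 61.5 and 53.9 CPM in WT SH 1 to 4 and 57.01, 60.2, 98.4 and 56.1 CPM in WT MI 1 to 4. In the KO libraries it had 15.5, 14.6, 21.8 and 14.9 CPM in KO SH 1 to 4 and 18.1, 20.5, 17.3 and 20.7 CPM in KO MI 1, 2, 3 and 7. All 8 KO libraries were below all 8 WT libraries. KO differed from WT by −2.29 on the log2 scale after sham surgery (standard error 0.22, adjusted p = 7.8e-06 from edgeR), a level of 0.205 of WT, and −1.83 post-MI (standard error 0.22, adjusted p = 0.000185 from edgeR), a level of 0.281 of WT. The canonical sum without Rpl29 was 4889 to 5086 CPM in KO SH and 5294 to 6433 CPM in WT SH, again without overlap.

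Ribosomal protein genes have many processed pseudogenes, and RSEM divides reads that match several genes among them. By sequence, 1056 pseudogenes could be assigned to 73 of the members, and their summed level was 187 to 360 CPM per library. Rpl29 has 66 such copies. Its most abundant copies, Gm8210 and Gm13841, had identical values in every library, from 0.961 CPM in WT SH 1 to 5.85 CPM in KO MI 2, and were higher where Rpl29 was lower. With all copies added, Rpl29 had 66.3 to 114 CPM in the WT libraries and 27.1 to 35.2 CPM in the KO libraries, still without overlap. The log2 fold changes of Rpl29 were then −1.61 after sham surgery (adjusted p = 2.12e-05 from edgeR) and −1.24 post-MI (adjusted p = 0.000739 from edgeR). Acy1, on the opposite strand, overlaps Rpl29 and had 2.49 CPM on average.

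Rps15a, a small subunit gene, lies on the minus strand of chromosome 7 from 117703595 to 117715454. It had 16.98, 18.5, 19.3 and 21.6 CPM in WT SH 1 to 4 and 13.9, 13.5, 15.2 and 12.8 CPM in KO SH 1 to 4. Post-MI it had 26.0, 29.7, 26.9 and 19.6 CPM in WT MI 1 to 4 and 15.4, 17.9, 16.7 and 16.5 CPM in KO MI 1, 2, 3 and 7. The KO libraries were below the WT libraries after either surgery. The log2 fold change of KO against WT was −0.46 after sham surgery (standard error 0.11, adjusted p = 0.0137 from edgeR) and −0.62 post-MI (standard error 0.10, adjusted p = 0.00347 from edgeR). In WT MI against WT SH it was 0.42 (standard error 0.10, adjusted p = 0.0360 from edgeR).

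The pseudogene Rps15a-ps7 moved against its parent in WT MI. It had 0.0631, 0.0215 and 0.0450 CPM in WT MI 1, 2 and 3, where Rps15a was highest, and between 1.28 and 3.39 CPM in the other 13 libraries. With copies added, Rps15a was at 21.7 to 30.1 CPM in WT MI and 21.4 to 24.4 CPM in WT SH. Then the difference between them was 0.24 on the log2 scale and no longer called (adjusted p = 0.146 from edgeR), and it was also lost without WT SH 1 (0.37, adjusted p = 0.116 from edgeR) and without WT MI 2 (0.34, adjusted p = 0.133 from edgeR). The KO differences of Rps15a remained called with copies added, at −0.37 after sham surgery (adjusted p = 0.0163 from edgeR) and −0.36 post-MI (adjusted p = 0.0389 from edgeR). With copies, KO SH at 16.3 to 18.4 CPM stayed below WT SH, while KO MI at 18.9 to 22.6 CPM overlapped WT MI.

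Rpl3, whose protein lies near the peptidyl transferase centre, and its pseudogene Rpl3-ps1 also moved in opposite directions. Rpl3-ps1 had 5.25, 40.4, 74.6 and 69.5 CPM in WT SH 1 to 4 and 3.91, 43, 4.43 and 3.91 CPM in WT MI 1 to 4. It stood at 66.7 to 78.9 CPM in KO SH and 75.4 to 93.0 CPM in KO MI. Rpl3 alone had 186, 138, 109 and 107 CPM in WT SH 1 to 4, high where its pseudogene was low. With copies added the values were 192, 179, 184 and 177 CPM, close to the 174 to 194 CPM of KO SH. Post-MI, Rpl3 with copies was at 157 to 182 CPM in WT MI and 192 to 239 CPM in KO MI, while Rpl3 alone was at 139 to 163 CPM in WT MI and 116 to 145 CPM in KO MI. Rpl3 alone was called in 0 of the 4 comparisons (adjusted p between 0.168 and 0.563 from edgeR), and its direction between KO MI and WT MI turned with the copies counted. With copies, Rpl3 was called higher in KO MI against WT MI (log2 fold change 0.39, standard error 0.07, adjusted p = 0.00351 from edgeR). It was also called higher in KO MI than in KO SH (0.25, adjusted p = 0.0199 from edgeR), and its log2 fold change in KO SH against WT SH was 0.00.

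**Figure D4:**
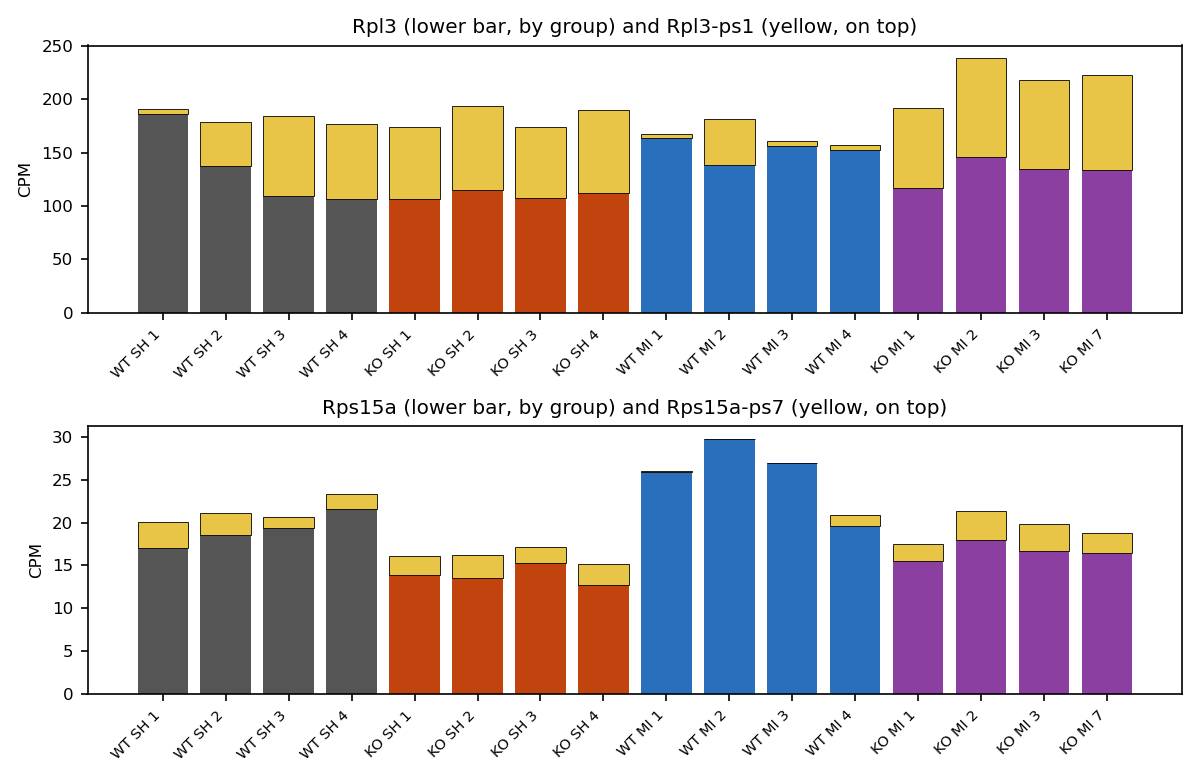
CPM of Rpl3 and Rps15a in each of the 16 libraries (lower bars, coloured by group) with the most abundant assigned pseudogene of each stacked on top in yellow. Rpl3-ps1 is nearly absent in WT SH 1 and WT MI 1, 3 and 4 (3.91 to 5.25 CPM) and Rps15a-ps7 in WT MI 1, 2 and 3, where the parent bars are tall.

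With the copies added to the parents, the canonical sum with copies was 5202 to 5397 CPM in KO SH and 5631 to 6790 CPM in WT SH, without overlap as for the parents alone. The 4 canonical members with no assigned copy had a median log2 fold change of −0.22 in KO SH against WT SH, and 2 were called lower, beside 7.22% of all genes. In KO MI against KO SH their median was 0.22 and 3 were called higher, beside 10.2% of all genes. The 73 with a copy had medians of −0.24 and 0.23.

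Among the paralogs Rpl3l was the one that was called. This striated muscle form of Rpl3 (ENSMUSG00000002500, chromosome 17, 24946751 to 24955119) had 9.54, 7.97, 7.12 and 5.997 CPM in WT SH 1 to 4 and 4.15, 4.89, 5.15 and 4.56 CPM in KO SH 1 to 4. It had 4.81, 4.09, 4.36 and 5.08 CPM in WT MI 1 to 4 and 3.64, 1.79, 4.03 and 2.86 CPM in KO MI 1, 2, 3 and 7. WT SH lay above each other group, and KO MI lay below each other group, in both cases without overlap. Its log2 fold change stood at −0.71 in KO SH against WT SH (standard error 0.18, adjusted p = 0.0243 from edgeR), −0.74 in WT MI against WT SH (standard error 0.18, adjusted p = 0.0359 from edgeR) and −0.60 in KO MI against KO SH (standard error 0.19, adjusted p = 0.0478 from edgeR). In KO MI against WT MI it was −0.57 (standard error 0.19, adjusted p = 0.161 from edgeR). In KO hearts Rpl3l thus fell post-MI while 42 canonical members rose.

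The calls of Rpl3l were sensitive to single libraries and to the model. With Xist as a covariate, Rpl3l was not called in WT MI against WT SH (adjusted p = 0.126 from edgeR). Its call in KO MI against KO SH was lost when only the libraries of that comparison were fitted. Without WT SH 1 the adjusted p from edgeR was 0.101 in KO SH against WT SH and 0.124 in WT MI against WT SH, and without WT MI 2 the latter was 0.115. In KO MI against KO SH it was 0.1001 without KO SH 2, 0.119 without KO SH 3, 0.128 without KO MI 2 and 0.257 without both KO MI 2 and 7 (all from edgeR), with log2 fold changes of −0.58, −0.55, −0.41 and −0.30.

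**Figure D5:**
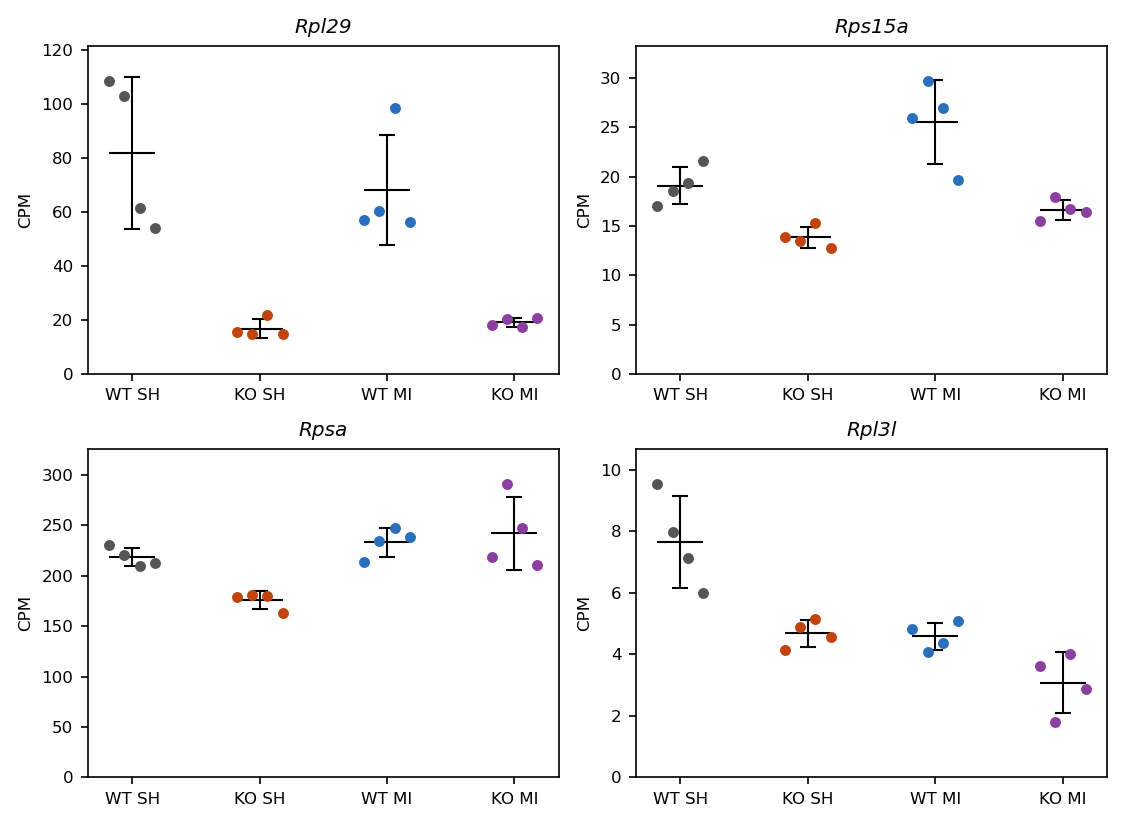
CPM per library of Rpl29, Rps15a, Rpsa and Rpl3l by group, with the group mean and SD (n = 4) in black. Rpl29 separates the genotypes, with all KO libraries at 21.8 CPM or lower and all WT libraries at 53.9 CPM or higher, Rpsa is lowest in KO SH, and Rpl3l is highest in WT SH and lowest in KO MI.

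The ratio of a paralog to its parent does not depend on the scaling of a library, and 5 pairs were compared in the 4 contrasts, 20 tests in all. Rpl3l counts were 5.13%, 5.78%, 6.52% and 5.61% of those of Rpl3 in WT SH 1 to 4 and 3.89%, 4.27%, 4.82% and 4.08% in KO SH 1 to 4. They were 2.95%, 2.95%, 2.79% and 3.33% in WT MI 1 to 4 and 3.13%, 1.23%, 3.005% and 2.14% in KO MI 1, 2, 3 and 7. The SH libraries of each genotype lay above the MI libraries of that genotype. The log2 ratio was lower by 0.94 in WT MI than in WT SH, by 0.93 in KO MI than in KO SH and by 0.43 in KO SH relative to WT SH, each with an exact permutation p of 0.0286, the smallest that 4 libraries against 4 allow, and an adjusted p of 0.143. Since Rpl3 itself carries the uncertainty of Rpl3-ps1, the ratios were also formed with copies added to the parents, and the 3 differences were then −0.59, −0.91 and −0.69 on the log2 scale. KO MI and WT MI differed by −0.42 with the parent alone (exact permutation p = 0.314, adjusted p = 0.571) and −1.02 with copies added (adjusted p = 0.143 from the exact permutation test).

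No other paralog was called. Rpl22l1, the paralog of Rpl22, was at 11.4% to 18.1% of its parent over the 16 libraries. Rps27l, which is also a p53 target, was at 39.5% to 76.4% of Rps27, and Rpl36al was at 44.6% to 63.1% of Rpl36a. The ratio of Rpl36al to Rpl36a was lower by 0.24 on the log2 scale in KO MI than in KO SH (exact permutation p = 0.0286, adjusted p = 0.143), and the exact permutation p of the other ratios of these 3 pairs was 0.0857 or higher. Rpl36a itself was called lower in KO SH against WT SH (log2 fold change −0.39, standard error 0.12, adjusted p = 0.0480 from edgeR) and higher in KO MI than in KO SH (0.36, standard error 0.12, adjusted p = 0.0548 from edgeR). The first call was lost without WT SH 1 or KO SH 2 or 4 (adjusted p of 0.191, 0.135 and 0.121 from edgeR), and the second without KO SH 1, 2 or 4 or KO MI 2 or 3, with an adjusted p of up to 0.169 (edgeR).

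Rpl39l, a testis paralog of Rpl39, had at most 0.0787 CPM, which is near the level of 3 counts, and Rpl10l and Rps18-ps6 were at or next to 0. These 3 were not tested. Rps4l stood at 4.95 to 7.29 CPM and had log2 fold changes between 0.02 and 0.10. The retrocopies Rpl10-ps3, Rpl9-ps6, Rpl35rt, Rpl27rt, Rps27rt and Rps23rg1 were between 0.190 and 3.37 CPM on average, and 0 of them were called in any of the 4 comparisons by edgeR. At an unadjusted p under 0.05 were Rpl27rt and Rps23rg1, both in WT MI against WT SH. Rps23rg1, at 0.201 CPM on average, had log2 fold changes of 0.86 in KO SH against WT SH, 0.98 in WT MI against WT SH and −0.71 in KO MI against WT MI, larger in size than those of Rpl3l and not called.

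Genes that work with the ribosomal proteins were read from lists. Of 20 translation factors and other mRNAs of the terminal oligopyrimidine class, 4 (20% of the list, against 7.22% of all genes) were called lower in KO SH against WT SH and 0 higher. These were Eef1g of the elongation complex (−0.29), Tpt1 (−0.25), Naca of the nascent chain complex (−0.22) and Npm1 of the nucleolus (−0.20). In KO MI against KO SH, 7 (35% of the list, against 10.2% of all genes) were called higher and 1 lower, with Eef1g at 0.34 and Pabpc1, the poly(A)-binding protein, at 0.29 among the former and Eif4a2 at −0.16 as the latter. The median over this list was −0.09 and 0.14 in these comparisons.

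Ribosome biogenesis genes make and process the ribosomal RNA. Of 43 genes, 5 (11.6%, against 7.22% of all genes) were called lower in KO SH against WT SH and 0 higher (median −0.15). In KO MI against KO SH, 7 (16.3%, against 10.2% of all genes) were called higher and 0 lower (median 0.11). These shares were nearer to those of all genes than the shares of the canonical members were. Rrs1, a factor of large subunit assembly, passed the study's minimum in KO SH against WT SH (log2 fold change −0.57, standard error 0.11, adjusted p = 0.00520 from edgeR). It was the 1 gene of the list called in KO MI against WT MI (−0.48, standard error 0.11, adjusted p = 0.0310 from edgeR). Rrp12, which helps export the subunits, passed the minimum in KO MI against KO SH (0.67, standard error 0.19, adjusted p = 0.0309 from edgeR). In WT MI against WT SH, 0 of the 43 were called by edgeR, with 6 at an unadjusted p under 0.05.

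Upstream of translation, 4 of 19 genes (21.1%, against 7.22% of all genes) were called lower in KO SH against WT SH, namely Mycn (−0.44), Rheb (−0.24), Mtor (−0.22) and Eif4g1 (−0.22), and 0 were called higher. Mtor encodes the kinase that controls the terminal oligopyrimidine mRNAs and Rheb its activator. In KO MI against KO SH, 2 (10.5%, against 7.32% of all genes) were called lower, Rps6kb1 (−0.19) and Eif4ebp2 (−0.13), and 0 higher. Of 10 p53 response genes, which react to ribosome stress among other signals, 1 was called higher in KO SH against WT SH, beside 5.11% of all genes, namely Sesn2 (log2 fold change 0.59, standard error 0.14, adjusted p = 0.0168 from edgeR), and the other 9 were not called. Between KO MI and KO SH, Cdkn1a (0.41) and Zmat3 (0.31) were called higher and Eda2r (−0.28) lower, 2 and 1 of 10 genes beside 10.2% and 7.32% of all genes. In the comparisons not named for these lists of translation factors, biogenesis, translation control and p53 response, edgeR called 0 genes.

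The canonical members varied together also within groups. The median Pearson correlation between pairs of the 77 canonical members over the 16 libraries was 0.62 on log2 CPM, and 0.48 after the group means were removed. For the 36 of at least 50 CPM it was 0.69 and 0.55, beside 0.07 and 0.06 over all 2102 tested genes of at least 50 CPM. The libraries share depth and scaling factors, so these values are a description. Rps9 (median correlation 0.18 with the other canonical members), Rps21 (0.29) and Rpl24 (0.35) followed the family least, and Rpl24 had the most scattered values within KO SH in the plot of levels by gene and library.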

How the data were processed

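Total RNA of mouse ventricles was depleted of rRNA and sequenced as stranded paired 150-base reads. The authors deposited 1 table of RSEM expected counts per gene for the 16 libraries on GRCm39. The labels list bcl2fastq 2.17, cutadapt 3.4, FastQC, HISAT2 2.2.1, RSEM 1.1.17 and DESeq2, while the study's methods name other trimming and alignment tools, so the aligner is uncertain. The annotation release is not given in the sources used here. Every column matched a sample (0 unmatched). Gene names came from GENCODE M39, which held 47772 of the 51912 identifiers.

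Expected counts were rounded and fitted over all 16 libraries with edgeR 4.0.16 (R 4.3.3) by the quasi-likelihood test with TMM factors, for the 20159 genes reaching 10 counts, summed over libraries, in every group. Calls had a Benjamini-Hochberg adjusted p under 0.1. Standard errors are the absolute log2 fold change over the root of F. Ratios of a paralog to its parent added 0.5 to both counts and used two-sided exact permutation tests. Copies were assigned with blastn 2.17.0. Nothing says whether libraries came from separate litters, so p-values measure the spread between these libraries. The limit of 3 counts covers counting error only. On simulated data for KO SH against WT SH with log2 changes of 0.3, −0.3, 1 and −1, the fit was tested before use.

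The members and lists were chosen with earlier results of these data known. Named were all paralogs with their parents, the P stalk, the 3 largest rises and falls per comparison among called members of at least 1 CPM, every member past the study's minimum, and from other lists those past it, at most 4. Other genes were named after their values were seen. Alternatives were DESeq2 1.42.0, other scaling factors and filters, a robust fit, a replicate block, Xist as a covariate, only the libraries of a comparison, pseudogenes added to parents, other thresholds and libraries left out. Adding copies by sequence, the sum without Rpl29 and the 50-base window were chosen after seeing the data. Some genes are not reported by name here.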

Additional observations from a re-analysis of the deposited data

Results flagged for a closer look

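Of 116 groups of 4 libraries, of named members and of summed levels, 6 held a library far from the other 3. This is near the 1 in 20 that chance gives. Rpl29 stood at 21.84 CPM in KO SH 3 against 14.6 to 15.5 CPM in the other KO SH libraries, and at 98.44 CPM in WT MI 3 against 56.1 to 60.2 CPM. Rplp0 stood at 220.1 CPM in KO MI 1 against 247 to 249 CPM. Rpsa stood at 162.6 CPM in KO SH 4 against 179 to 181 CPM. Among the paralogs, Rps27l was at 7.008 CPM in WT SH 3 against 5.86 to 5.88 CPM, and Rps4l was at 5.077 CPM in KO SH 2 against 6.64 to 6.72 CPM.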

How the results depend on the processing

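The members called lower in KO SH against WT SH numbered 43, 3 with the study's minimum, and 17 to 51 with 1 library left out. The members called in KO MI against KO SH numbered 43, 27 at an adjusted p under 0.05, 1 with the study's minimum, 22 without KO MI 2 and 7, and 20 to 50 with 1 library left out. In KO MI against WT MI the count was 2 to 3 under every alternative run. With named pseudogenes or copies by sequence added it was 2 lower and 1, Rpl3, higher, and 1 passed the study's minimum. In WT MI against WT SH it was 1 with Xist as a covariate, with named pseudogenes added, with copies by sequence added and with the study's minimum, and 0 (without WT MI 2) to 4 (without WT SH 4) with 1 library left out. The interaction count was 14 with DESeq2, 3 (2 positive, 1 negative) without KO MI 2 and 7 and 0 to 22 with 1 library left out. The log2 ratio of summed levels by share of all counts was 0.12 in WT MI against WT SH, where TMM gave −0.01, and 0.39 in KO MI against KO SH. By share of counts outside the mitochondrial chromosome, the ratios of means in these comparisons were 1.047 and 1.18, and by TMM 0.991 and 1.18. The causes were not tested, except that stricter thresholds call fewer genes by construction.

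With the replicate block, 17 members had a positive interaction, against 4.36% of all genes, and KO SH against WT SH gave 52. KO MI 7 is the only library of its number, so the block gave it a term of its own. The block fit is thus close to leaving KO MI 7 out, which gave 21 members with a positive interaction, and is not a separate check. Libraries of the same number had correlations of deviations of −0.06 to 0.11 (21 pairs), beside −0.10 to 0.12 for the 75 pairs of unlike number. These values cannot tell whether libraries of the same number shared a litter. For named members, the 20 results called in the main fit had 470 alternative values. Of these, 416 kept their direction and side of the threshold, 54 lost the call and 0 reversed. Results not called in the main fit were not counted. Rpl3 in KO MI against WT MI, whose direction turned with copies added, is 1 of those. At 4 libraries a group, the self-test's smaller changes were often missed, and members under 1 CPM were resolved least.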
